A study of Mus musculus with 24 samples.

Results

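The troponin and tropomyosin genes of striated muscle were examined in C2C12 cells, an established wild-type mouse myoblast line that leaves the cell cycle and fuses into multinucleated myotubes in low serum. The 10 genes Tnnc1, Tnnc2, Tnni1, Tnni2, Tnnt1, Tnnt2, Tnnt3, Tpm1, Tpm2 and Tpm3 were taken by name from the 48544 genes listed. All 10 passed the filter on low values and stood among the 16257 genes tested. Polyadenylated RNA was measured in 24 libraries, 4 for each of 6 groups. These were day 0 myoblasts in 10% fetal bovine serum, myotubes after 7 days in 2% serum, day 7 myotubes exposed to 100 µM dexamethasone over 24 h or over 72 h, and their vehicle controls at 24 h and at 72 h. The exposed groups and their controls were collected at day 8 and day 10, all in 2% serum. Per the labels, 1% ethanol was part of the vehicle medium; ethanol is not named for the dexamethasone medium. All libraries come from this 1 line, and the labels leave unsaid if each replicate was its own culture. The p-values therefore reflect differences among these libraries only, and those differences may be technical.

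Troponin is the calcium switch of the thin filament. Troponin C binds calcium, troponin I holds back the interaction of actin with myosin, and troponin T ties the complex to tropomyosin, which lies along the actin filament and covers its myosin sites at rest. Each subunit comes from a small gene family whose members are used in different muscles. Tnnc1 serves slow skeletal and cardiac muscle and Tnnc2 fast muscle, Tnni1 and Tnnt1 are the slow forms, Tnni2 and Tnnt3 the fast forms, and Tnnt2 is the cardiac troponin T that embryonic skeletal muscle also makes. Tpm1, Tpm2 and Tpm3 encode tropomyosins of muscle, with Tpm3 the slow-fibre form, and Tpm1, Tpm2 and Tpm3 also make cytoplasmic tropomyosins in cells that are not muscle. The tables give 1 value per gene, so muscle and cytoplasmic transcripts of these genes cannot be told apart here.

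Because 9 of the 10 genes moved together during differentiation and Tpm3 did not, the sequence before the annotated starts of 5 of them is shown. RefSeq windows (build GRCm38.p6) were found for 8 of the 10 genes, 11 windows in all, and the 250 bases before each start were searched on both strands. Capitals mark E-boxes (CANNTG, the letters bound by myogenic basic helix-loop-helix factors) and M-CAT elements (CATTCC, or GGAATG on the other strand, the letters bound by TEAD factors).
Tnnc1 (chr14:31208062-31208311, plus strand): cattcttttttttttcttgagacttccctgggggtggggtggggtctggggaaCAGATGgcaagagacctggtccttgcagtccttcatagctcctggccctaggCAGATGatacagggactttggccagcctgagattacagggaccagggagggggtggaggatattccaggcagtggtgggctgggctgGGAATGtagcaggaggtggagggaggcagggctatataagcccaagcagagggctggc
Tnni1, first window (chr1:135799171-135799420, plus strand): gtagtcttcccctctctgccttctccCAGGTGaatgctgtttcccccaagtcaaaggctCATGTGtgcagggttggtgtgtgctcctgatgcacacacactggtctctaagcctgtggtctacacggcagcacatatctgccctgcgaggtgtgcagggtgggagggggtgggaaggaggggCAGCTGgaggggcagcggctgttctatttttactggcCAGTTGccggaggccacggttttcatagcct
Tnnt2, first window (chr1:135836084-135836333, plus strand): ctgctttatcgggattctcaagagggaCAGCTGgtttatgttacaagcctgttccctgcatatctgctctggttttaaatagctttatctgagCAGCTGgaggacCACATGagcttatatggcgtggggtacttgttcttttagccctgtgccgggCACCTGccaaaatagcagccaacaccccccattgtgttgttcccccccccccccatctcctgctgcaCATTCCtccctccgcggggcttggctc
Tnnt2, second window (chr1:135836739-135836988, plus strand): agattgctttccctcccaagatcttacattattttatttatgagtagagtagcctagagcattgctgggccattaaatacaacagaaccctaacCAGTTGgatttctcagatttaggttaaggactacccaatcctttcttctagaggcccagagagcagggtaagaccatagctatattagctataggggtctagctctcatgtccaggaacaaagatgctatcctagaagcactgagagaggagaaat
Tpm1 (chr9:67049214-67049463, minus strand): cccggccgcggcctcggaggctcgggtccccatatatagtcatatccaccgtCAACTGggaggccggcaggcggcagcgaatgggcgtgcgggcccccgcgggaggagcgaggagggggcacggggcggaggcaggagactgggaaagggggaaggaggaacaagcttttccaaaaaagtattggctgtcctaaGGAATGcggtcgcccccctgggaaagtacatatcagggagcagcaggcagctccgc
Tpm3, first window (chr3:90072401-90072650, plus strand): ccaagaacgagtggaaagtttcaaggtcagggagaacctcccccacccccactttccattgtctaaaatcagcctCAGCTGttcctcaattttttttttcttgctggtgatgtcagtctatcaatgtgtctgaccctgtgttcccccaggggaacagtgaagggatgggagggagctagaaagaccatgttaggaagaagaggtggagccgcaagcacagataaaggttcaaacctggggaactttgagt
An E-box was present in all 11 windows, against 66.2% of 32851 windows of this length over all genes, so most windows hold these letters. M-CAT letters stood in 3 of 11 windows, those of Tnnc1, Tpm1 and the first of Tnnt2, against 12.6% of all windows. The hexamer AGAACA, the better conserved part of a glucocorticoid receptor site, stood in 3 of 11 windows, against 16.1% of all windows. These 3 are the 2 overlapping windows of Tnni1 and the first of Tnnt2. The MEF2 and CArG consensus letters were in none of the 11, against 2.92% and 1.47% of all windows. A match is a run of letters and no measured binding site. The bases that follow the first Tnnt2 start were not found in a Tnnt2 transcript of the GENCODE annotation of this build, those after the second were. Those after the second Tnni1 start and the second Tpm3 start were likewise not found in transcripts of their genes.

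Levels are given in TPM (transcript abundance scaled to a fixed library total), a length-scaled unit that allows genes to be compared. Unless stated otherwise, adjusted p-values come from limma with Benjamini-Hochberg adjustment over all 16257 genes, and log2 differences are those of the authors' normalised log2 table. That table shows smaller differences than TPM does, so folds are given as ratios of mean TPM. Between 12428 and 13030 genes per library reached 1 TPM, and the sequencing depth is unknown. Markers followed the labels, since all 9 myotube markers rose and all 9 markers of unfused and dividing cells fell at day 7. The replicate 1 libraries at 72 h stood apart. Of 30 genes that were under 1 TPM in the other dexamethasone libraries at 72 h and at 10 TPM or more in the vehicle, the replicate 1 dexamethasone library held a median of 21.1% of the level in its vehicle counterpart. The replicate 1 vehicle library at 72 h held 13.0% of its counterpart's level over 19 such genes, whereas the other 72 h libraries held at most 0.0757%. At 24 h the replicate 1 dexamethasone library held 11.2% over 5 such genes, against 3.06% to 4.97% in the other dexamethasone libraries. The replicate 1 vehicle library at 24 h held 1.15%, against at most 0.314% in the other vehicle libraries. Several of the member tests, shares and list counts at 72 h, though not all, are therefore also given without those libraries. In bulk RNA, fewer cells of a type and less RNA per cell cannot be told apart.

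**Figure D1:**
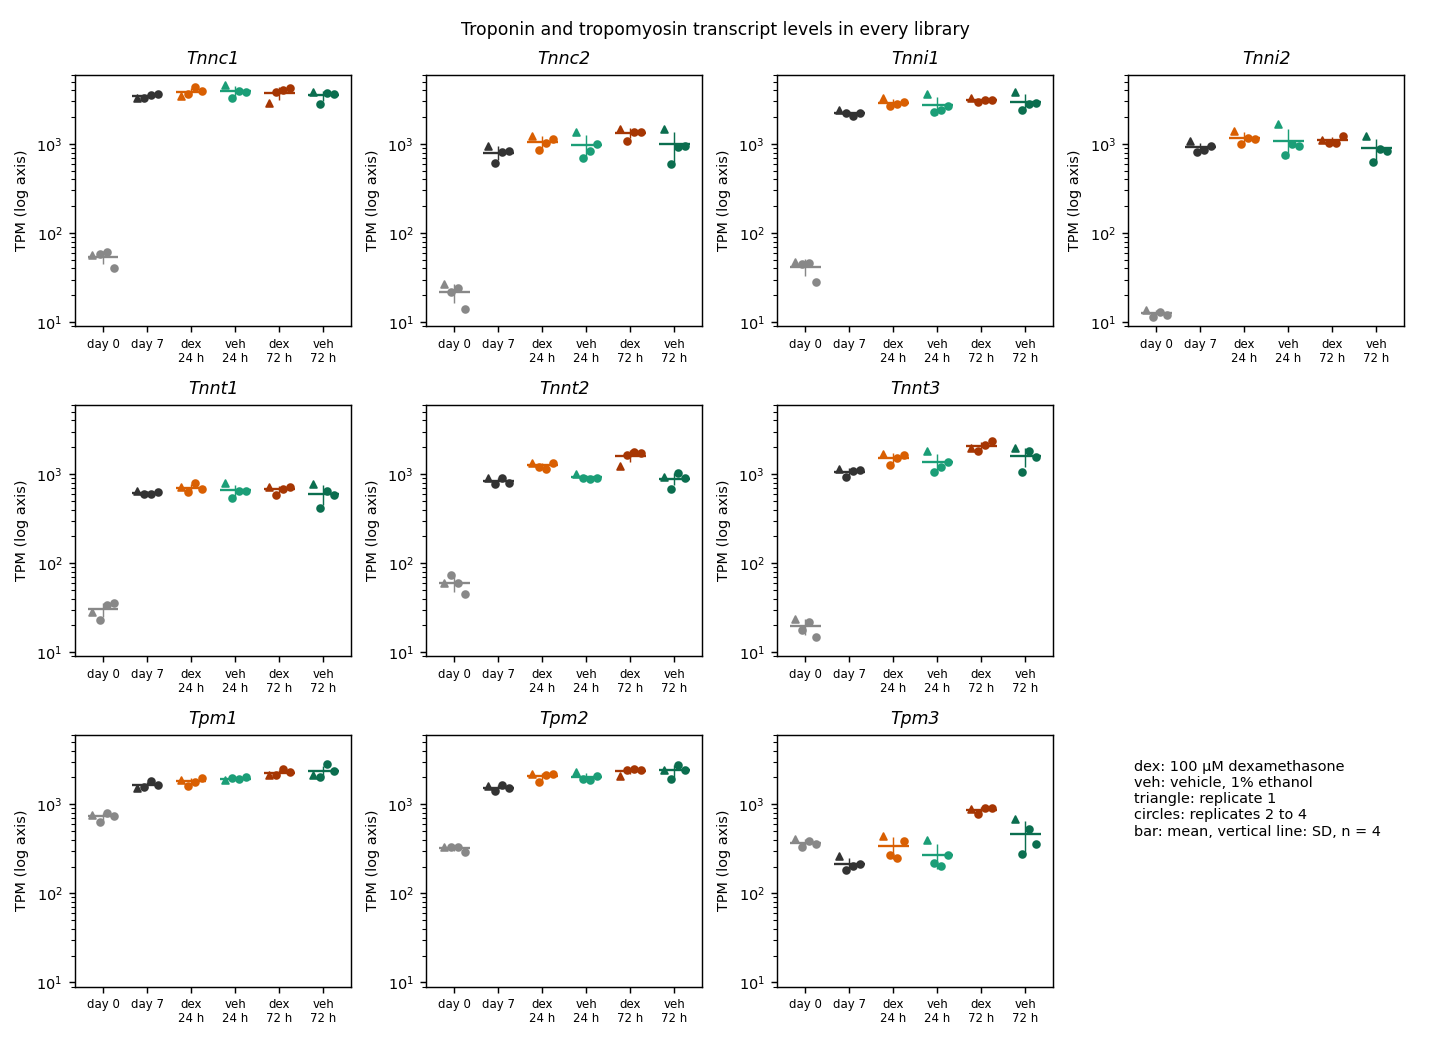
TPM of the 10 genes (log axis) in every library, by group, with replicate 1 as a triangle, the other replicates as circles, a bar for the mean and a vertical line for the SD (n = 4). The 7 troponin genes reach at most 73.5 TPM at day 0 and lie at 411 TPM or above in every later library, whereas Tpm3 is lowest at day 7 and highest after 72 h of dexamethasone.

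Day 7 myotubes were set against day 0 myoblasts to ask how the thin filament set is assembled during differentiation. All 7 troponin genes, Tpm1 and Tpm2 rose, and Tpm3 fell. Thus 9 of 10 genes were called higher and 1 lower; over all tested genes 60.3% were called, 30.5% higher and 29.8% lower. The median log2 difference of the 10 genes was 2.72, against 0.01 over all genes tested. Together the 10 genes made up 1.33% ± 0.0640 of all TPM in myotubes and 0.167% ± 0.0114 in myoblasts (SD, n = 4).

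Among the calcium-binding subunits, Tnnc1 stood at 3312, 3265, 3511 and 3592 TPM in the 4 myotube libraries, against 56.6, 57.7, 60.8 and 40.3 TPM in the 4 myoblast libraries. The groups lie far apart, with a 63.5-fold higher mean in myotubes and a log2 difference of 3.18 ± 0.10 (SE, adjusted p = 1.5e-16). Tnnc2 averaged 799.8 ± 135 TPM in myotubes and 21.6 ± 5.38 TPM in myoblasts, 37.0-fold higher (log2 difference 2.84 ± 0.17, adjusted p = 3.2e-12). Both troponin C genes were thus already detected in the day 0 libraries, at a low level. Bulk RNA does not tell which cells of the day 0 cultures held these transcripts.

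The inhibitory subunits rose as much. Tnni1 averaged 2217 ± 129 TPM in myotubes and 41.9 ± 9.02 TPM in myoblasts, 52.9-fold higher (log2 difference 3.01 ± 0.12, adjusted p = 4.0e-15). Tnni2 was at 1068, 806, 849 and 951 TPM in myotube libraries, against 13.8, 11.4, 12.9 and 12.1 TPM in myoblast libraries. Its 73.3-fold higher mean is the largest fold among the 10 genes (log2 difference 3.20 ± 0.15, adjusted p = 1.2e-13). Cardiac troponin I, Tnni3, was at 1.23 ± 0.0858 TPM in myotubes and 1.01 ± 0.318 TPM in myoblasts and did not pass the test (adjusted p = 0.42).

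The troponin T genes rose by different amounts. Cardiac Tnnt2 was at 897, 776, 897 and 785 TPM in myotube libraries, against 59.7, 73.5, 60.0 and 44.7 TPM in myoblast libraries, 14.1-fold higher (log2 difference 2.28 ± 0.09, adjusted p = 9.7e-15). Slow Tnnt1 was 20.4-fold higher, at 618 ± 19.9 TPM in myotubes and 30.2 ± 5.67 TPM in myoblasts (log2 difference 2.60 ± 0.12, adjusted p = 4.4e-14). Fast Tnnt3 was 54.0-fold higher, at 1061 ± 102 TPM in myotubes and 19.6 ± 4.06 TPM in myoblasts (log2 difference 2.95 ± 0.13, adjusted p = 3.6e-14). The family was therefore led by Tnnt2 in myoblasts and by Tnnt3 in myotubes.

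Tropomyosin transcripts were abundant before differentiation. Tpm1 averaged 1641 ± 116 TPM in myotubes and 735 ± 69.8 TPM in myoblasts, 2.23-fold higher (log2 difference 0.82 ± 0.07, adjusted p = 3.8e-09). Tpm2 averaged 1538 ± 106 TPM in myotubes and 321 ± 19.4 TPM in myoblasts, 4.79-fold higher (log2 difference 1.46 ± 0.09, adjusted p = 9.8e-12). Tpm3 was the exception, at 260.5, 182, 204 and 214 TPM in myotube libraries, against 408, 332, 385 and 359.6 TPM in myoblast libraries. The groups do not overlap, and the mean was 1.72-fold lower in myotubes (log2 difference −0.47 ± 0.17, adjusted p = 0.020). Tpm4, which encodes a cytoplasmic tropomyosin and is no member of the set, also fell, to 464 ± 68.8 TPM in myotubes, against 982 ± 121 TPM in myoblasts (log2 difference −0.72 ± 0.14, adjusted p = 1.1e-04). It made up 12.0% ± 1.71 of the summed Tpm1 to Tpm4 level in myotubes and 40.7% ± 1.78 in myoblasts (SD, n = 4).

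Shares of each family were compared with 2-sided exact permutation tests, 40 in all, in which 4 against 4 libraries cannot give a p below 0.0286. The sums hold members only, so tropomyosin here is Tpm1, Tpm2 and Tpm3 without Tpm4, and troponin I is without Tnni3. The smallest adjusted p over the 40 tests was 0.114, so no share passed the threshold in any comparison. In differentiation, 5 of 8 shares had groups that do not overlap, each with the smallest possible exact p = 0.0286. Tnnt3 made up 42.1% ± 1.70 of troponin T in myotubes and 17.9% ± 2.79 in myoblasts, and Tnnt2 33.3% ± 1.60 in myotubes and 54.1% ± 7.30 in myoblasts. Tnnt1 ranged from 23.3% to 26.3% in myotubes and from 20.13% to 37.5% in myoblasts, and these ranges overlap. Within tropomyosin, Tpm2 made up 45.3% ± 1.20 in myotubes and 22.6% ± 2.00 in myoblasts, and Tpm3 6.34% ± 0.931 in myotubes and 26.0% ± 0.918 in myoblasts. The Tnnc2 share of troponin C was 18.9% ± 2.57 in myotubes and 28.4% ± 2.56 in myoblasts.

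**Figure D2:**
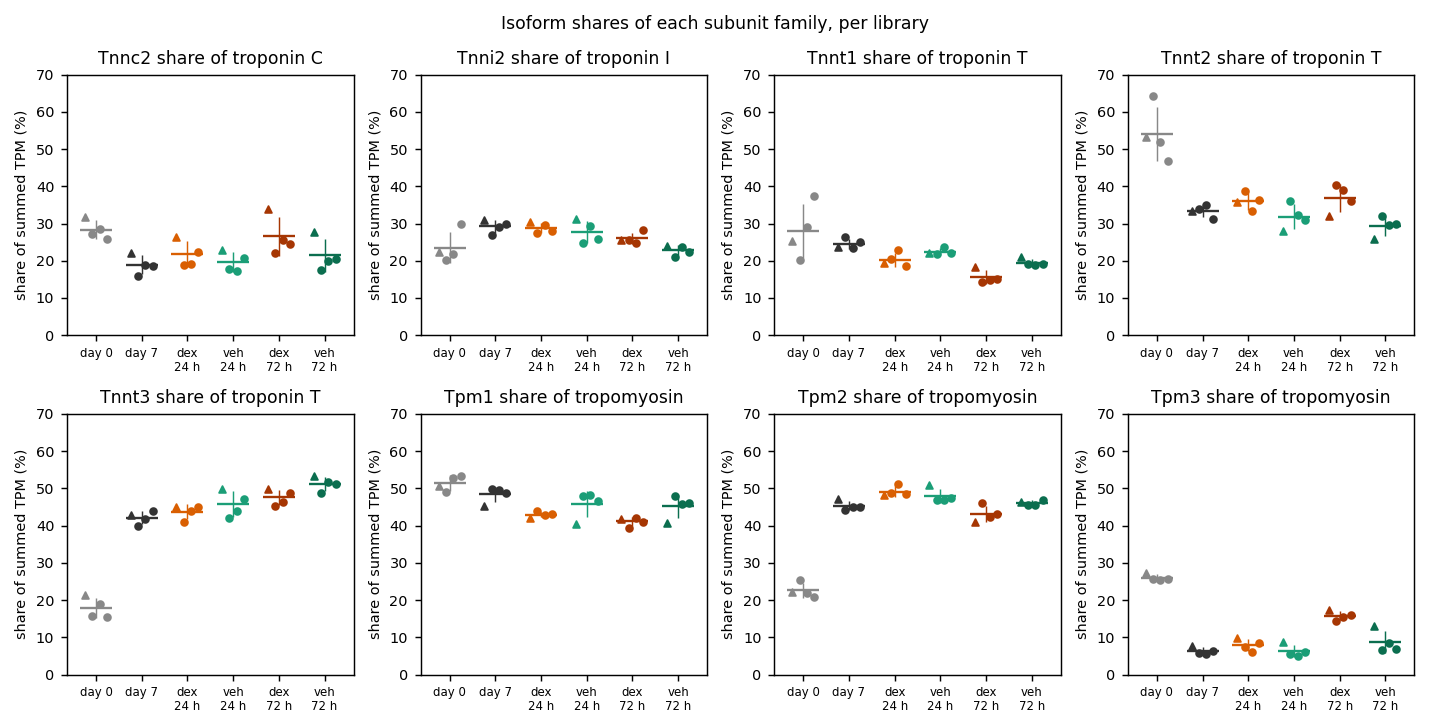
Share of each isoform in the summed TPM of its family (percent), per library and group, with replicate 1 as a triangle, a bar for the mean and a vertical line for the SD (n = 4). Tpm4 and Tnni3 are not in these sums. The Tnnt2 share is highest at day 0, from 46.9% to 64.2%, and the Tpm3 share after 72 h of dexamethasone, from 14.5% to 17.3%, lies above every other myotube library.

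The balance between families also differed between stages, as a description with no test. Summed troponin C was 1.68 ± 0.0685 times summed troponin T in myotubes and 0.685 ± 0.0789 times in myoblasts. Summed troponin I was 1.25 ± 0.0768 times troponin T in myotubes and 0.495 ± 0.0517 times in myoblasts. Summed tropomyosin was 1.35 ± 0.0642 times troponin T in myotubes and 13.1 ± 1.35 times in myoblasts, where tropomyosin was thus present in large excess at the transcript level (SD, n = 4).

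**Figure D3:**
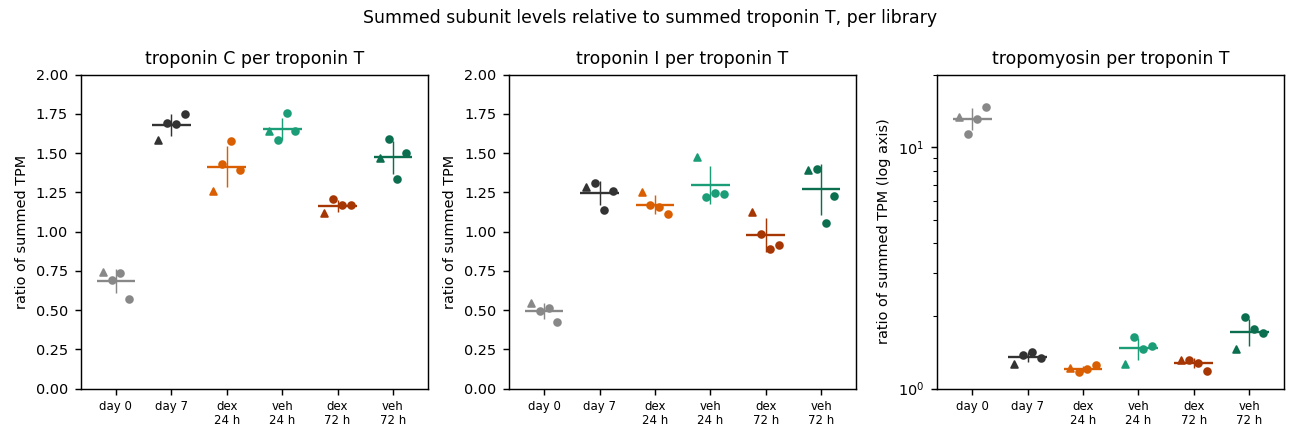
Ratio of the summed TPM of troponin C, troponin I and tropomyosin (Tpm1, Tpm2 and Tpm3) to that of troponin T, per library and group; the tropomyosin panel has a log axis, triangles are replicate 1, bars are means and vertical lines the SD (n = 4). At 72 h the dexamethasone libraries lie between 1.12 and 1.21 for troponin C, below all vehicle libraries, which lie between 1.33 and 1.59.

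Genes that work with these proteins changed in the same comparison. Of 18 thin filament partners 17 were tested, of which 10 rose and 4 fell (median log2 difference 1.75). Klhl40, a stabiliser of thin filament proteins, and the leiomodins Lmod3 and Lmod2, which nucleate actin filaments, had log2 differences of 3.06, 2.83 and 2.73 (adjusted p at most 1.6e-15). Skeletal actin Acta1, cardiac actin Actc1 and nebulin, Neb, rose with log2 differences of 2.63, 2.58 and 2.40. Of 11 splicing factors that act on troponin T or tropomyosin transcripts, 3 rose and 4 fell. Rbfox1 (2.65) and Rbm24 (2.03) rose, and Mbnl3 (−1.44) and Ptbp1 (−1.23), a repressor of muscle exons, fell (log2 differences, adjusted p at most 5.2e-10). Of 18 tested regulators of fast and slow fibre genes 7 rose and 7 fell, with Mef2c at 2.78, Tbx15 at 1.64, Tead4 at 1.41 and Nfatc4 at 1.08 on the log2 scale (adjusted p at most 2.4e-04).

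Cardiac markers were set beside the cardiac troponin T transcript, and their relation to it was not tested. Of 10 cardiac markers 6 were tested, of which Myh6 rose (log2 difference 2.73, adjusted p = 1.2e-10) and Gata4 fell (−0.37, adjusted p = 5.0e-04). Their summed level was 14.0 to 18.9 TPM in myotube libraries and 13.6 to 21.4 TPM in myoblast libraries. Mybpc3, Myl7, Nppa, Ryr2 and Tbx5 were under 0.5 TPM in every library of both groups. Of 9 smooth muscle and myofibroblast markers, which also use Tpm1 and Tpm2, Mylk and Synpo2 rose and Cnn1 fell (log2 differences 1.81, 1.57 and −1.64, adjusted p at most 0.015). The summed level of this list was 1739 to 2892 TPM in myotube libraries and 1649 to 2272 TPM in myoblast libraries, and its part in the Tpm1 and Tpm2 results was not tested.

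After 24 h, dexamethasone was set against vehicle to ask whether an atrophy-inducing glucocorticoid alters the set early. None of the 10 genes passed the test in limma, in a comparison in which 25.4% of all tested genes did, 13.2% higher and 12.2% lower; at an unadjusted p below 0.05 there was 1, Tnnt2. The median log2 difference of the 10 genes was 0.02, against −0.01 over all genes. Tnnt2 was at 1323, 1212, 1139 and 1325 TPM in dexamethasone libraries, against 1013, 894, 879 and 899.9 TPM in vehicle libraries. Every dexamethasone library lay above every vehicle library, a 1.36-fold higher mean, yet the log2 difference of 0.24 ± 0.09 had an adjusted p of 0.066. It passed when limma was run on log2(TPM + 0.1) (0.44, adjusted p = 0.027), after quantile normalisation (0.30, adjusted p = 0.032), and without the vehicle 24 h replicate 1 library (0.29, adjusted p = 0.038). It did not pass with replicate number as a block, nor without all replicate 1 libraries, fits in which 0 of the 10 genes were called. Over all 16257 genes, the fit with the block called 4621 and the one without all replicate 1 libraries 3606.

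The other members overlapped between dexamethasone and vehicle at 24 h. Log2 differences ran from −0.14 ± 0.07 for Tpm1 (adjusted p = 0.16) to 0.14 ± 0.17 for Tpm3 (adjusted p = 0.58). Tpm3 was at 442, 269, 247 and 385 TPM in dexamethasone libraries and 394, 221, 202 and 270.1 TPM in vehicle libraries, higher in each of the 4 same-numbered pairs. Each dexamethasone library thus exceeded its own partner by less than the libraries of either group differed among themselves. Tpm4 fell, to 214 ± 52.0 TPM with dexamethasone, against 317 ± 42.8 TPM with vehicle (log2 difference −0.45 ± 0.14, adjusted p = 0.020). The Tnnt2 share of troponin T was 36.0% ± 2.28 with dexamethasone and 31.8% ± 3.31 with vehicle (exact permutation p = 0.0857, adjusted p = 0.171).

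Around the members, 3 of 17 thin filament partners rose and 2 fell at 24 h, with Lmod1 (1.51), Tmod1 (0.42), Tpm4 and Tmod3 (−0.34) changing most on the log2 scale. Lmod1 was at a low level, 6.83 ± 4.27 TPM with dexamethasone and 1.27 ± 0.335 TPM with vehicle. Of the 11 splicing factors 4 rose and none fell, namely Celf2 (0.46), Mbnl2 (0.44), Rbm20 (0.40) and Rbfox1 (0.39). Of the 18 fibre regulators 7 rose and none fell, among them Ppargc1a (1.17), Six4 (0.79), an activator of fast muscle genes, and Tead4 (0.46). The median log2 difference of the fibre regulators was 0.21. Among markers of unfused and dividing cells Myf5 (1.85), Id3 (1.31) and Id1 (0.61) rose, while Mki67 was at 0.403 ± 0.169 TPM with dexamethasone and 0.944 ± 0.896 TPM with vehicle (adjusted p = 0.41). None of the 9 myotube markers and none of the 6 tested cardiac markers passed the test in limma, although 2 myotube markers were called higher with replicate number as a block; the smooth muscle markers Lmod1, Mylk (0.87) and Smtn (0.26) rose (adjusted p at most 0.0062).

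After 72 h, Tnnt2 and Tpm3 were higher with dexamethasone, and limma called none of the 10 genes lower. Whether the Tpm3 transcripts were of the slow-fibre or the cytoplasmic kind cannot be told from gene-level values. At an unadjusted p below 0.05 there were 4 genes higher and 0 lower. Over all tested genes 30.3% were called, 15.2% higher and 15.2% lower. The median log2 difference of the 10 genes was 0.20, against 0.01 over all genes.

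Tnnt2 was at 1239, 1632, 1789.7 and 1728 TPM in dexamethasone libraries, against 936, 688, 1027 and 907 TPM in vehicle libraries. The groups do not overlap, with the replicate 1 library the lowest of the treated ones. The mean was 1.80-fold higher with dexamethasone (log2 difference 0.62 ± 0.09, adjusted p = 3.7e-05), and 1.96-fold without both replicate 1 libraries (0.72 ± 0.10, adjusted p = 1.8e-05). Tpm3 was at 885, 771, 912 and 903 TPM in dexamethasone libraries, against 691, 277, 523 and 355 TPM in vehicle libraries. These groups do not overlap either, and the highest vehicle library is the replicate 1 library. The mean was 1.88-fold higher with dexamethasone (log2 difference 0.72 ± 0.17, adjusted p = 0.0024), and 2.24-fold without both replicate 1 libraries (0.87 ± 0.17, adjusted p = 5.7e-04).

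The fast isoforms gave results that depend on the fit. Tnnt3 was at 1938, 1835, 2123 and 2327 TPM in dexamethasone libraries, against 1936, 1048, 1802 and 1553 TPM in vehicle libraries. Each dexamethasone library lay above its same-numbered vehicle library, but the replicate 1 pair was nearly equal and the groups overlap (log2 difference 0.31 ± 0.13, adjusted p = 0.080). With replicate number as a block, the adjusted p was 0.021, and without both replicate 1 libraries 0.040. After quantile normalisation it was 0.022 (log2 difference 0.38). The libraries bear out the pairing by number only in part. Dexamethasone replicate 2 deviated most like vehicle replicate 4, with a correlation of 0.117 with its own number. Tnnc2 was at 1471, 1082, 1373 and 1362 TPM in dexamethasone libraries, against 1479, 602, 926 and 937 TPM in vehicle libraries. It was higher in 3 of 4 pairs, the replicate 1 pair being the exception (log2 difference 0.36 ± 0.17, adjusted p = 0.11; 0.011 with the block; 0.48 ± 0.16 and adjusted p = 0.030 without both replicate 1 libraries).

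The remaining 6 genes did not pass with all libraries, with or without the block, nor without both 72 h replicate 1 libraries. In a fit without all replicate 1 libraries, chosen after seeing the data, Tnni2 passed (0.36, adjusted p = 0.018). With all libraries, Tnni2 averaged 1095 ± 103 TPM with dexamethasone and 888 ± 243 TPM with vehicle (log2 difference 0.25 ± 0.15, adjusted p = 0.23). The slow isoforms were close, with Tnnc1 at 3721 ± 597 TPM with dexamethasone and 3501 ± 467 TPM with vehicle (log2 difference 0.07 ± 0.10, adjusted p = 0.64). Tnni1 and Tnnt1 had log2 differences of 0.07 ± 0.12 and 0.15 ± 0.12 (adjusted p = 0.70 and 0.37). The abundant tropomyosins Tpm1 and Tpm2 differed by −0.02 ± 0.07 and 0.01 ± 0.09 on the log2 scale (adjusted p = 0.88 and 0.96).

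**Figure D4:**
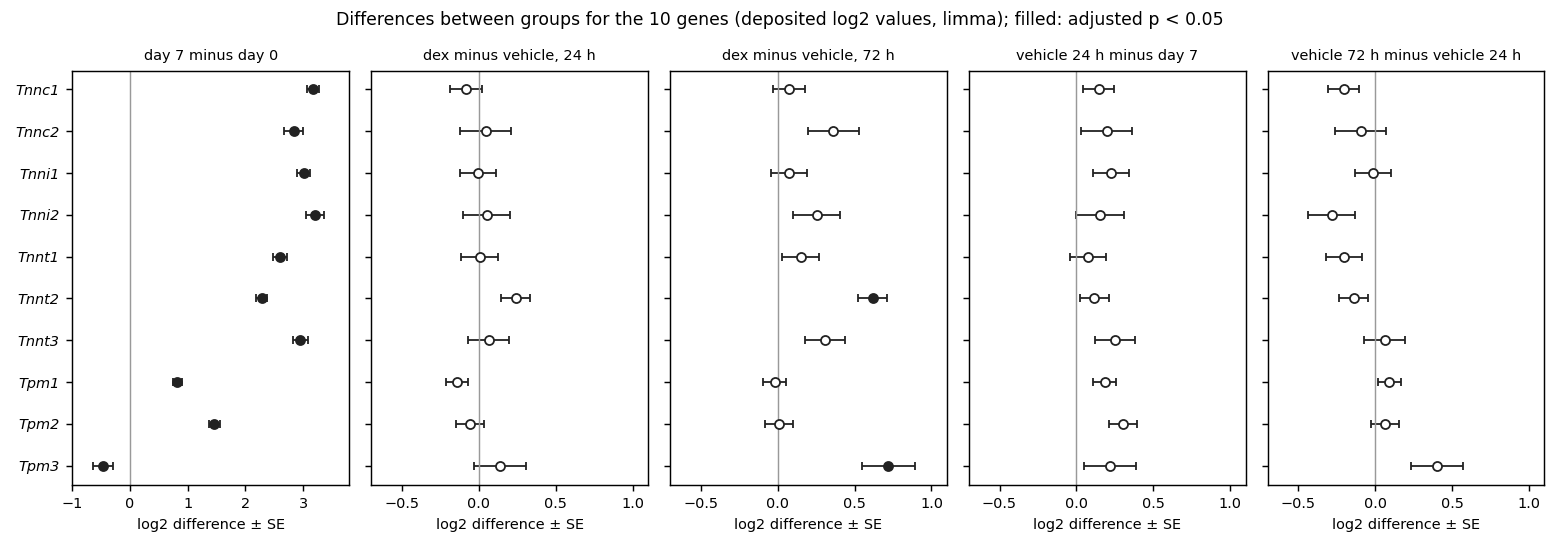
Log2 differences of the 10 genes (points) with their SE (lines) in 5 comparisons, from the authors' normalised log2 table by limma, filled where the adjusted p is below 0.05; the first panel has a wider axis. In the 72 h panel only Tnnt2 (0.62) and Tpm3 (0.72) are filled, and no gene is filled in the other treatment and vehicle panels.

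Isoform shares at 72 h separated the groups for 3 of 8 shares, each with the smallest possible exact permutation p = 0.0286 and an adjusted p = 0.114. Tpm3 made up 17.3%, 14.5%, 15.6% and 16.0% of tropomyosin in dexamethasone libraries, against 13.1%, 6.51%, 8.54% and 6.90% in vehicle libraries. The difference of means was 7.07 percentage points, and 8.01 points without both replicate 1 libraries. Tnnt1 made up 15.6% ± 1.77 of troponin T with dexamethasone and 19.5% ± 1.04 with vehicle, and Tnni2 26.1% ± 1.51 of troponin I with dexamethasone and 22.8% ± 1.37 with vehicle. The Tnnt2 share of troponin T was 36.8% ± 3.73 with dexamethasone and 29.3% ± 2.61 with vehicle, with the replicate 1 treated library just under the highest vehicle library (exact permutation p = 0.0571, adjusted p = 0.163). The fast Tnnt3 share was lower with dexamethasone, at 47.5% ± 2.10, against 51.2% ± 1.85 with vehicle, and the ranges overlap (exact permutation p = 0.0571, adjusted p = 0.163). Without both replicate 1 libraries the differences of mean shares were 3.83 points for Tnni2, −4.21 for Tnnt1, 8.02 for Tnnt2 and −3.80 for Tnnt3. Each had an exact permutation p = 0.1, the smallest that 3 against 3 libraries can give. Summed troponin C was 1.17 ± 0.0384 times troponin T with dexamethasone and 1.47 ± 0.107 times with vehicle, and the libraries of the groups do not overlap. For troponin I these ratios were 0.978 ± 0.106 with dexamethasone and 1.27 ± 0.162 with vehicle, and here the ranges overlap. Without the replicate 1 libraries they do not, with at most 0.986 in dexamethasone libraries and at least 1.06 in vehicle libraries. Summed tropomyosin was at most 1.32 times troponin T with dexamethasone and at least 1.46 times with vehicle. At 24 h the troponin C ratio also lay apart, narrowly, at most 1.575 with dexamethasone and at least 1.584 with vehicle. The tropomyosin ratio did too (at most 1.248 and at least 1.265), whereas the troponin I ratios overlapped at 24 h. No ratio was tested.

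Markers of other states moved at the same time. Of 9 markers of unfused and dividing cells 7 rose and 1 fell at 72 h, with Ccnd1 (2.52), Mcm5 (2.35), Mki67 (2.10) and Top2a (1.96) changing most on the log2 scale (adjusted p at most 8.2e-04). The list summed to 419 to 638 TPM in dexamethasone libraries and 149 to 271 TPM in vehicle libraries. At 24 h, where Tpm3 did not pass, it summed to 419 to 552 TPM with dexamethasone and 146 to 202 TPM with vehicle, and Myf5, Id3 and Id1 were the genes that rose. Since Tpm3 also makes cytoplasmic tropomyosin, these values stand beside its rise; their part in it was not tested. Tpm4, which encodes a cytoplasmic tropomyosin as Tpm1 and Tpm2 also do in part, was at 298 ± 39.8 TPM with dexamethasone and 317 ± 97.2 TPM with vehicle at 72 h (adjusted p = 0.95).

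Cardiac markers beside the Tnnt2 result were low. Of 6 tested at 72 h, Gata4 rose to 11.2 ± 1.54 TPM with dexamethasone, against 8.80 ± 1.09 TPM with vehicle (log2 difference 0.25, adjusted p = 0.023), and Mybpc3 was called higher at a mean of 0.0853 TPM with dexamethasone and 0.0355 TPM with vehicle. The list summed to 22.3 to 23.5 TPM in dexamethasone libraries and 15.9 to 21.3 TPM in vehicle libraries, while Mybpc3, Myl7, Nppa, Ryr2 and Tbx5 were under 0.5 TPM in every library of both groups. Tnni3 was at 3.36 ± 1.48 TPM with dexamethasone and 2.13 ± 1.22 TPM with vehicle (adjusted p = 0.12). Of the smooth muscle and myofibroblast markers Mylk (−0.62) and Acta2 (−0.44) fell, and the list summed to 1131 to 2219 TPM with dexamethasone and 1876 to 2555 TPM with vehicle. Among myotube markers Ckm (1.24) and desmin, Des (0.35), rose and embryonic myosin Myh3 (−0.49) fell, with Ckm at 629.6 TPM in the replicate 1 dexamethasone library and 114.9 to 189 TPM in the others. Replicate 1 had the most Ckm in every other group too. In vehicle at 72 h it held 226 TPM, against 26.0 to 70.5 TPM in the other libraries.

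The partners and regulators changed in both directions at 72 h. Of 17 thin filament partners 1 rose, Cfl2 (0.25), and 2 fell, Nebl (−0.95) and Tmod3 (−0.31), while Acta1, Actc1 and Neb had log2 differences of 0.22, 0.00 and 0.22 and did not pass (adjusted p at least 0.19). Nebl was at a low level, 0.306 ± 0.132 TPM with dexamethasone and 0.881 ± 0.215 TPM with vehicle. Of the splicing factors 4 rose, among them Rbfox1 (0.48), Mbnl3 (0.43) and Ptbp1 (0.36), and Mbnl1 fell (−0.32, adjusted p = 0.022). Of the fibre regulators 4 rose and 4 fell. Ppargc1a, a coactivator linked to slow oxidative fibres, rose to 1.64 ± 0.193 TPM with dexamethasone, against 0.646 ± 0.266 TPM with vehicle (log2 difference 1.02, adjusted p = 2.6e-04). Nfatc4, a calcineurin-dependent factor, fell to 2.17 ± 1.49 TPM with dexamethasone, against 11.4 ± 3.04 TPM with vehicle (−1.66, adjusted p = 9.1e-06), with Eya1 (−0.44) lower and Tead4 (0.40) higher. Without both replicate 1 libraries, the counts of partners, fibre regulators and cardiac markers called in each direction were the same as with them. In that fit 5 splicing factors were higher and 1 lower, 2 myotube markers higher and 2 lower, 7 markers of unfused and dividing cells higher and 2 lower, and 0 smooth muscle markers higher and 3 lower.

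The dexamethasone response at 72 h was then set against that at 24 h in the same fit. None of the 10 genes passed in limma; 2 had an unadjusted p below 0.05, in a comparison in which 11.3% of all tested genes passed. Tnnt2 differed by 0.38 ± 0.13 on the log2 scale (adjusted p = 0.067) and Tpm3 by 0.58 ± 0.24 (adjusted p = 0.12), in each case with the larger response at 72 h. With replicate number as a block, Tpm3 passed (adjusted p = 0.031). Without both 72 h replicate 1 libraries, Tnnt2 (0.48, adjusted p = 0.018) and Tpm3 (0.73, adjusted p = 0.033) both passed. Between the treated groups themselves, Tpm3 was 2.58-fold higher at 72 h than at 24 h (log2 difference 0.99 ± 0.17, adjusted p = 1.6e-04) and Tpm1 1.25-fold higher (0.22 ± 0.07, adjusted p = 0.032), in a comparison in which 28.5% of all genes passed, 14.3% higher and 14.2% lower. The Tpm1 step did not pass after quantile normalisation (0.15, adjusted p = 0.12) or without all replicate 1 libraries (0.24, adjusted p = 0.061).

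Time in culture without dexamethasone was followed from day 7 to vehicle at 24 h and at 72 h. In each of these 1-step comparisons none of the 10 genes passed in limma, with 2 at an unadjusted p below 0.05 for vehicle 24 h minus day 7 and 1 for vehicle 72 h minus vehicle 24 h. Over all tested genes 0.209% passed in the first and 4.36% in the second. Over the 3 days together, vehicle at 72 h minus day 7, the tropomyosins were higher and no troponin passed, while 19.1% of all tested genes did, 8.77% higher and 10.3% lower. On log2(TPM + 0.1) that balance turned, with 1559 genes higher and 987 lower, against 1426 higher and 1678 lower on the deposited log2 values. Tpm1 was 1.43-fold higher (log2 difference 0.28 ± 0.07, adjusted p = 0.014), Tpm2 1.56-fold (0.37 ± 0.09, adjusted p = 0.0099) and Tpm3 2.14-fold (0.62 ± 0.17, adjusted p = 0.016). Without both 72 h replicate 1 libraries the Tpm3 difference was 0.45 ± 0.16 and did not pass (adjusted p = 0.056), and without all replicate 1 libraries that of Tpm1 did not (0.27, adjusted p = 0.066). The labels name no ethanol for the day 7 medium, so time and vehicle cannot be told apart in these comparisons. Shares with groups that do not overlap were those of Tnni2 and Tnnt1 for vehicle 72 h minus vehicle 24 h (exact permutation p = 0.0286, adjusted p = 0.114). Tnni2 made up 22.8% ± 1.37 of troponin I in vehicle at 72 h and 27.7% ± 2.97 in vehicle at 24 h, and Tnnt1 19.5% ± 1.04 of troponin T in vehicle at 72 h and 22.4% ± 0.885 in vehicle at 24 h. Without the replicate 1 libraries at 72 h the exact permutation p was 0.0571 for Tnni2 and 0.0286 for Tnnt1.

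By mean TPM, day 0 was the lowest of the 6 groups for 9 genes. Each step between neighbours in this order was tested on the log2 values, and the step from day 0 to the next group was the only one that passed. Neighbours whose step did not pass can stand in the other order on the log2 scale, as dexamethasone and vehicle at 72 h do for Tpm2. Above it the 5 myotube groups followed in an order that differed between genes, with vehicle at 24 h highest for Tnnc1, dexamethasone at 24 h for Tnni2 and Tnnt1, dexamethasone at 72 h for Tnnc2, Tnni1, Tnnt2 and Tnnt3, and vehicle at 72 h for Tpm1 and Tpm2. Tpm3 had another order by mean TPM, with day 7 lowest, then vehicle 24 h, dexamethasone 24 h, day 0, vehicle 72 h and dexamethasone 72 h. Its only step between neighbours to pass was the last one (adjusted p = 0.0024). Steps not described above come from comparisons in which 63.7% (vehicle 72 h minus day 0), 66.7% (dexamethasone 24 h minus day 0), 35.3% (dexamethasone 24 h minus day 7), 14.3% (vehicle 72 h minus dexamethasone 24 h) and 48.1% (dexamethasone 72 h minus vehicle 24 h) of all genes passed.

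Within the troponin families the same gene led in every myotube library. Tnnc1 exceeded Tnnc2 and Tnni1 exceeded Tnni2 in all 24 libraries, since the Tnnc2 share of troponin C was at most 33.9% and the Tnni2 share of troponin I at most 31.1%. The slow and cardiac forms therefore made up most troponin C and troponin I transcripts, whereas fast Tnnt3 had the largest share of troponin T in every myotube library. Among tropomyosins, Tpm2 exceeded Tpm1 in all 4 dexamethasone 24 h libraries and Tpm1 exceeded Tpm2 in all 4 day 0 libraries, whereas the lead differed among the libraries of the other 4 groups. Retrogene copies listed under the name Tpm3 were negligible, with Tpm3-rs7 at 0.569 TPM or less, at most 0.157% of Tpm3, and Tpm3-rs2 listed at 0.

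The genes closest in pattern over the 24 libraries are given as a description, by Pearson's r of the log2 values, which for most members is set by the step from day 0 to the myotube groups. Tnnc1 was closest to Mylpf (0.997) and Fn3k (0.996), Tnnc2 to Casq1 (0.996) and Pygm (0.992), and Tnni1 to Casq2 (0.995) and Cox6a2 (0.994). Tnni2 was closest to Csrp3 (0.996) and Mylpf (0.991), Tnnt1 to Csrp3 (0.994) and Cox6a2 (0.994), Tnnt2 to Adprhl1 (0.990) and Myoz2 (0.989), and Tnnt3 to Myoz2 (0.997) and Myl1 (0.997). Tpm1 was closest to Chrng (0.984), and Tpm2 to Myl1 (0.994) and Tmem38a (0.993). Several of these are genes of the sarcomere or of calcium storage in muscle. Tpm3 stood apart, with Carnmt1 (0.906) and Pabpc4 (0.891) closest and an r of 0.236 with Tpm1, the most alike of the other 9 genes.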

How the data were processed

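C2C12 RNA was measured in 24 libraries, 6 groups of 4, assigned from the sample labels; a stranded poly(A) kit was used, per the labels' protocols. The authors deposited a table of normalised log2 values and a table of TPM per gene. Salmon, DESeq, kallisto 0.51.1 and the build GRCm39 are named, with no role or order, per the submitters' processing notes. Read counts were not used here, so the depth behind each value is unknown and no counting interval is given.

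The deposited log2 values were fitted with limma 3.58.1 (R 4.3.3, with an intensity trend in the prior variance), 1 mean per group with all 24 libraries sharing the estimate of spread. A gene was tested where 2 to the power of its value reached 10 in 4 or more libraries (16257 of 48544 genes). Calls used a Benjamini-Hochberg adjusted p below 0.05. Genes were joined by Ensembl identifier; 48291 had a symbol. The deposited table cuts names at hyphens, so 12 rows carry the name of a member and 2 are retrogene copies of Tpm3. Shares and ratios were computed from TPM with numpy 2.4.6 and pandas 2.3.3, and shares were compared with 2-sided exact permutation tests. Scripts were tested on simulated data.

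Same-numbered libraries deviated together in the comparison of day 7 with day 0 (correlations of deviations 0.145 to 0.212). They also did so for dexamethasone with vehicle at 24 h (0.201 to 0.391) and at 72 h (0.117 to 0.338). At 72 h, however, dexamethasone replicate 2 deviated most like vehicle replicate 4. Blocked results are given for these comparisons. Alternatives were TPM with pseudocounts of 0.1 and 1, quantile normalisation, no filter, the replicate block and leaving out libraries.

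The 10 genes and all lists were chosen with earlier results of these data known. Named genes are the 10 members, up to 4 called genes of largest absolute log2 difference per list and comparison, Acta1, Actc1, Neb, Tpm4, Tnni3, Myog and Mki67, and the 2 genes closest in pattern to each member; some genes that this rule names are not reported here. The lists were thin filament partners, splicing factors, fibre regulators, and markers of myotubes, of unfused and dividing cells, of cardiac muscle, and of smooth muscle and myofibroblasts. Acta1, Mef2c, Lmod1 and Tnni3 stand in 2 lists each. Promoter sequences are RefSeq's (GRCm38.p6), and no coordinates were converted between builds.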

Additional observations from a re-analysis of the deposited data

Results flagged for a closer look

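In 6 of 108 groups of 4 libraries examined, 1 library lay far from the other 3, and chance gives about 1 in 20. Tnni1 was at 28.5 TPM and Tpm2 at 292 TPM in the day 0 replicate 4 library, each below the other myoblast libraries. Tpm2 was at 2091 TPM in the dexamethasone 72 h replicate 1 library, below the other treated libraries. Tnnt2 was at 1013 TPM in the vehicle 24 h replicate 1 library, above the others, and without that library the Tnnt2 difference at 24 h passed the test. The Tnnt1 share of troponin T was 23.8% in the vehicle 24 h replicate 3 library and the Tpm2 share of tropomyosin 50.9% in the vehicle 24 h replicate 1 library, each above the others.

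The dexamethasone response differed between 72 h and 24 h, by limma's interaction test, for 13 of 84 genes examined and for 0 of the 10 members; 2 members had an unadjusted p below 0.05. Cell cycle genes had a higher response at 72 h, with log2 differences of responses of 2.77 for Ccnd1, 2.76 for Mcm5, 2.62 for Mki67, 2.50 for Top2a and 1.78 for Cdk1, as did the splicing repressor Ptbp1 at 0.39. The response at 72 h was lower for Id3 (−1.58), Mylk (−1.49), Nfatc4 (−1.46), Pax7 (−0.94), Mbnl1 (−0.49), Six4 (−0.48) and Ppp3ca (−0.42).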

How the results depend on the processing

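Of 1010 results for the 10 genes recomputed under the alternatives, in the planned comparisons of day 7, dexamethasone and successive vehicle groups, 988 kept their side of the threshold, 22 newly passed it, 0 lost a call and 0 called results reversed. The sign changed in 53 where neither value passed. No recomputed share passed the threshold, which with 4 against 4 or fewer libraries says nothing about the stability of the shares. For day 7 against day 0, 9 members were higher and 1 lower in every fit. At 24 h, 1 member was higher with dexamethasone on log2(TPM + 0.1), on log2(TPM + 1) and after quantile normalisation, against 0 with limma on the deposited log2 values, and 0 to 1 when libraries were left out one at a time. Over all genes at 24 h, 2132 of 15250 were higher on log2(TPM + 0.1) and 2038 of 16257 after quantile normalisation, against 2143 of 16257. At 72 h, 3 were higher after quantile normalisation, 4 with the replicate block, 4 without both 72 h replicate 1 libraries and 5 without all replicate 1 libraries (chosen after seeing the data), against 2, and 2 to 4 when libraries were left out one at a time. Over all 16257 genes at 72 h, 2437 were higher after quantile normalisation and 2709 with the block, against 2466. Without both 72 h replicate 1 libraries 2452 were higher, and without all replicate 1 libraries 2510. For the difference between responses, 1 passed with the block, 2 without both 72 h replicate 1 libraries and 2 without all replicate 1 libraries, against 0, and 0 to 1 when libraries were left out one at a time. Of all 16257 genes, 2233, 2466 and 2195 passed in these 3 fits, against 1842. Blocking lost no call of a member and changed no other member call. Over all genes, 34 passed for vehicle 24 h minus day 7, but 4 on TPM, 109 with the replicate block, 11 without both 72 h replicate 1 libraries and 0 without all replicate 1 libraries. For vehicle 72 h minus vehicle 24 h, 709 passed, but 270 on TPM, 1067 with the block, 380 and 5. In these comparisons the numbers pair the libraries only in part. Replicate 1 deviated most like its own number in both, with correlations of 0.492 and 0.565. Correlations of other numbers reached down to −0.0142 and −0.249. At 24 h, 2132 genes were higher and 1160 lower with dexamethasone on TPM, against 2143 and 1991. For vehicle 72 h minus vehicle 24 h, 219 were higher and 51 lower on TPM and 314 and 321 after quantile normalisation, against 434 and 275. For the difference between responses, 599 were higher and 1057 lower on TPM, against 904 and 938. TPM shifted the median of all genes by 0.13 for vehicle 72 h minus vehicle 24 h, 0.11 for vehicle 72 h minus day 7 and −0.12 for the difference between responses. Causes were not tested. Depth is unknown, gene-level values cannot separate transcript isoforms, and 4 against 4 libraries limit the share tests.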
